A study of Drosophila melanogaster with 12 samples.

Results

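The promoters of protein-coding genes were examined for the binding of Polycomb-like (*Pcl*) in the sweet taste neurons of *Drosophila melanogaster* fed a sugar diet or a control diet, and each promoter was set beside the body of its own gene. A promoter here is the window of 500 bp on each side of the outermost annotated 5′ end of a gene, and a gene body runs from 500 bp after that point to the annotated end of the gene. Of 18164 annotated genes on the major chromosome arms (X, 2L, 2R, 3L, 3R and 4), 13945 are protein-coding. Their windows were placed by annotation alone, with no measured value involved. Because the fly genome is compact, only 4020 of the 13945 windows (28.8%) overlapped no other gene and no other promoter window, so many promoters share signal with a neighbor.

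Binding was measured by targeted DamID (TaDa), in which a bacterial adenine methyltransferase (Dam) fused to the protein of interest methylates the GATC sites that the fusion comes near. The 6 samples analyzed came from flies of the genotype *Gr5a;tubulinGAL80ts>UAS-LT3-Dam::Pcl*, 3 on the sugar diet (30% sucrose) and 3 on the control diet (5% sucrose). Flies of both diets were of both sexes and matched in age, with 300 heads in each sample. Expression of the fusion was held back by GAL80ts and released by warmth (29°C in the labels); the sample titles give 4 days, while the growth notes in the labels give a shorter time. Flies with *UAS-LT3-Dam*, which carries Dam alone, supplied the denominator of every ratio. The *Gr5a* driver limits the fusion to sweet taste neurons and to any other cell of the head in which the driver is active, the fusion comes on top of the fly's own *Pcl*, and DNA was taken from whole heads. The values are log2(*Dam::Pcl/Dam*) for each fragment between neighboring GATC sites, so a value of 1 is a fold of 2.0 over Dam alone, and they say where the fusion bound, not how strongly a gene was expressed.

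*Pcl* belongs to Polycomb Repressive Complex PRC2, in the form known as PRC2.1. PRC2 methylates lysine in the tail of histone H3, and this mark keeps developmental genes silent in cells where they are not needed. In flies the Polycomb proteins are brought to DNA by Polycomb response elements, which hold sites for DNA-binding factors such as Pho (core site GCCAT) and the GAGA factor (core site GAGAG) and which often lie at or near the promoters of genes for developmental regulators.

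The windows of 6 genes are shown because they carry the extremes of the values below. The first pair were among the 10 highest promoters over all samples, the next pair were among the 10 largest rises on the sugar diet, and the last pair among the 10 largest falls. Each line holds 300 bases of the gene's own strand, from 250 bases before the start to 50 bases after it. Capitals mark GAGAG or its reverse complement CTCTC, and GCCAT or its reverse complement ATGGC. The genes are *drm* (chr2L:3538997-3539296, plus strand), *ph-p* (chrX:2138322-2138621, minus strand), *tup* (chr2L:18881212-18881511, minus strand), *hkb* (chr3R:4346597-4346896, minus strand), *pho* (chr4:1181579-1181878, minus strand) and *CG5390* (chr2L:10306545-10306844, minus strand), all in the dm6 build.
drm: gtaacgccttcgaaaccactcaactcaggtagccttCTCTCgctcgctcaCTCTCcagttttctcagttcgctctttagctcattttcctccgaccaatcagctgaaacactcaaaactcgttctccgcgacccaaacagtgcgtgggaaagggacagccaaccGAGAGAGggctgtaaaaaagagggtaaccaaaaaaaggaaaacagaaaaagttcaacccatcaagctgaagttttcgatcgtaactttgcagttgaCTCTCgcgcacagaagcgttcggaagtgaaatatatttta
ph-p: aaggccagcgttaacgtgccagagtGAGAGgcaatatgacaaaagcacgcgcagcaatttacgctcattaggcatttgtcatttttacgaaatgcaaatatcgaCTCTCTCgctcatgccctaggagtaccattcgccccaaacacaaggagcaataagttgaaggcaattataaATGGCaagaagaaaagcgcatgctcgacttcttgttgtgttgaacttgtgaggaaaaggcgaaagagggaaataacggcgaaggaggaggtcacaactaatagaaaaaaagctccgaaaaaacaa
tup: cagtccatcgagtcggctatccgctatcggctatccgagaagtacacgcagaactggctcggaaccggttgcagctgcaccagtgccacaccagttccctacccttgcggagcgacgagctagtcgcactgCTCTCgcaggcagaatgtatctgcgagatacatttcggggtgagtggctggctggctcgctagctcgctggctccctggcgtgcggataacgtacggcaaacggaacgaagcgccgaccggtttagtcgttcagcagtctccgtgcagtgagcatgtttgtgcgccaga
hkb: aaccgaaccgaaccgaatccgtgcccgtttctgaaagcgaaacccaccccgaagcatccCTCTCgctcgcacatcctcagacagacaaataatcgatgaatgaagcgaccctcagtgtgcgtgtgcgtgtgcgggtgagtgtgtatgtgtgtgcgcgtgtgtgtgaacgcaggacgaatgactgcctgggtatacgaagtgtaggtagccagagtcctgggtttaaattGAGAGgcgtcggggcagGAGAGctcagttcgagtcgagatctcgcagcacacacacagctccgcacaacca
pho: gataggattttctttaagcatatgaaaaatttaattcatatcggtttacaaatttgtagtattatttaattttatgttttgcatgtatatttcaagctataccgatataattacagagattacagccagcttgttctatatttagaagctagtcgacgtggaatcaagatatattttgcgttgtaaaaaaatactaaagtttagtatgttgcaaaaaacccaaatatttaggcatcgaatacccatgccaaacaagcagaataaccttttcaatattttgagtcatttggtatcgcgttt
CG5390: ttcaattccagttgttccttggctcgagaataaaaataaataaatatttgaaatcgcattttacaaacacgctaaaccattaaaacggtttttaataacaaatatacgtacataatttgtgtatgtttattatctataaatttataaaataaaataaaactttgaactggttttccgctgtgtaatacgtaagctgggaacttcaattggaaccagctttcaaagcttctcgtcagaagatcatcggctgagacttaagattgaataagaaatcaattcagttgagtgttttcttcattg
The GAGAG motif, counted on both strands with overlaps, occurred 5 times in the 300 bases of *drm*, 3 times in those of *ph-p* and of *hkb*, once in those of *tup*, and 0 times in those of *pho* and *CG5390*. The GCCAT motif occurred once at *ph-p* and 0 times at the other 5. Among the 300-base windows of all 13945 protein-coding genes, 29.7% held GAGAG and 41.2% held GCCAT. The GC content of the 6 stretches was 46.3% for *drm*, 43.7% for *ph-p*, 59.7% for *tup*, 55.7% for *hkb*, 29.0% for *pho* and 30.0% for *CG5390*. These matches describe the letters in the windows and were not tested as binding sites.

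Of the 13945 promoters, 12850 (92.1%) could be tested, with 2 or more fragments in the window and values over at least 80% of its length. A further 1094 touched fewer than 2 fragments, and 1 failed for another reason. The tested windows held a median of 4 fragments (2 to 21). Depth is unknown for these ratios, and the number of samples limits the precision. Over these promoters the samples of one diet correlated with each other at r = 0.933 to 0.970, and samples of different diets at r = 0.603 to 0.796, with control diet sample 3 the nearest to the sugar diet. Between 10.6% and 11.1% of fragments were listed at exactly 0 in each sample. A fragment at 0 in one sample was negative in 0 cases in the other samples of its diet, against 8.99% to 15.7% of cases in those of the other diet. Which Dam-only library served which ratio is not given in the sources used here, so samples of one diet may share a denominator, and the p-values below then measure only the spread between these samples.

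*Pcl* binding was low at most promoters and strong at a minority of them. The median promoter level was -0.062, -0.0071 and -0.025 in the 3 sugar diet samples, against 0.082, 0.017 and 0.011 in the 3 control diet samples. All sugar diet medians were below all control diet medians, with a difference of -0.068, and the exact permutation test (two-sided) gave p = 0.1, the smallest value that 3 samples against 3 allow. With a correction for GC content this difference turned to 0.053 (exact permutation p = 0.2). A promoter was called bound on a diet where its level was at least 1 in all 3 samples of that diet. By this rule 873 promoters (6.79%) were bound on the sugar diet and 827 (6.44%) on the control diet, of which 573 were bound on both, 300 on the sugar diet alone and 254 on the control diet alone. The shared promoters made up 65.6% of those bound on the sugar diet and 69.3% of those bound on the control diet. These counts rest on the scale of the deposited ratios, since a threshold in units of each sample's own spread gave 2632 on the sugar diet and 3204 on the control diet.

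Long genes had bound promoters more often than short ones. On the sugar diet 4.82% of promoters of genes under 2 kb were bound, 5.36% at 2 to 5 kb, 9.97% at 5 to 20 kb and 20.0% at 20 kb or more, against 5.02%, 5.36%, 8.85% and 15.8% on the control diet. Promoters bound on both diets belonged to genes with a median length of 3647 bp, while promoters bound on neither diet belonged to genes with a median length of 2017 bp. Of the promoters bound on both diets, 57.9% overlapped no other gene or promoter, against 28.2% of all tested promoters. Bound promoters also lay side by side, since 54.5% of those bound on the sugar diet and 58.6% of those bound on the control diet sat in runs of 2 or more neighboring genes, with a longest run of 7 on the sugar diet and 8 on the control diet. Neighbors in such a run can share fragments.

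Within the full window of 1001 bp, the classes of bound promoters differed in base composition and in short motifs. The GAGAG motif was present in 78.9% of promoters bound on both diets, in 80.3% of those bound on the sugar diet alone, in 64.6% of those bound on the control diet alone and in 65.7% of those bound on neither, beside 66.6% of all tested promoters. The GCCAT motif was present in 87.8%, 87.0%, 79.1% and 86.2% of the same 4 classes, beside 86.1% of all. The TATAAA motif (reverse complement TTTATA) was present in 66.5%, 62.7%, 85.8% and 74.8%, beside 74.3% of all. The TATCGATA motif, the site of the factor DREF at many housekeeping promoters, was present in 4.19%, 3.67%, 10.6% and 12.9%, beside 12.3% of all. Median GC content was 43.9% for promoters bound on both diets, 46.4% for the sugar diet alone, 37.7% for the control diet alone and 42.5% for neither. Motif content follows base composition, and the 2 were not separated here.

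The 10 promoters with the strongest binding included those of 6 developmental transcription regulators. *vg*, a wing selector gene, stood at 7.28, 7.95 and 7.55 in the sugar diet samples, against 7.82, 7.72 and 7.80 in the control diet samples, and the diets overlapped. *drm*, a zinc finger gene of gut and leg development (2L, 3539247 to 3548423, plus strand, FBgn0024244), stood at 7.76, 8.16 and 8.46 on the sugar diet, against 7.18, 6.98 and 7.11 on the control diet. The groups did not overlap at *drm*, with a difference of 1.04 ± 0.19 (SE, limma, Benjamini-Hochberg adjusted p = 0.0106). The segment polarity gene *en* stood at 7.42, 7.43 and 8.49 on the sugar diet, against 6.33, 6.22 and 6.27 on the control diet (difference 1.51, limma adjusted p = 0.015). *ph-p*, a subunit of the other main Polycomb complex, PRC1, stood at 6.42, 6.98 and 6.80 on the sugar diet, against 6.99, 6.92 and 7.04 on the control diet, a difference of -0.25 that did not pass the test (limma adjusted p = 0.241). The appendage genes *dac* and *disco* were higher on the sugar diet by 0.87 and 0.90 (limma adjusted p = 0.00695 and 0.00222), and *salm*, a zinc finger gene of wing patterning, differed by -0.52 (limma adjusted p = 0.0724). The other 3 of the 10 highest promoters, *CG46458* inside the *Antp* locus, *CG13287* and *CG34367*, had means of 7.40, 7.55 and 7.07 on the sugar diet, against 7.19, 6.78 and 6.87 on the control diet. Of these 10 promoters, 5 rose as deposited, while quantile normalization gave 3 higher and 3 lower, and division by each sample's spread gave 0 higher and 1 lower.

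At the other end of the range, the 5 lowest promoters were those of *CG6454*, *mri*, *MBD-like*, *Usp8* and *Nup133*. *CG6454* stood at -2.29, -2.81 and -2.43 on the sugar diet, against -2.98, -3.24 and -3.50 on the control diet, and it shares its start region with *CG5746*, described below. *Nup133*, a nuclear pore component, averaged -2.20 ± 0.46 on the sugar diet and -2.29 ± 0.39 on the control diet (SD, n = 3 each), and *Usp8*, a deubiquitinase, averaged -2.51 ± 0.18 on the sugar diet and -2.01 ± 0.29 on the control diet. *MBD-like*, a relative of methyl-CpG binding proteins, averaged -1.89 ± 0.38 on the sugar diet and -2.71 ± 0.47 on the control diet. Of the 5 lowest, *CG6454* alone passed the test between diets, with a rise of 0.73 (limma adjusted p = 0.0322).

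**Figure D1:**
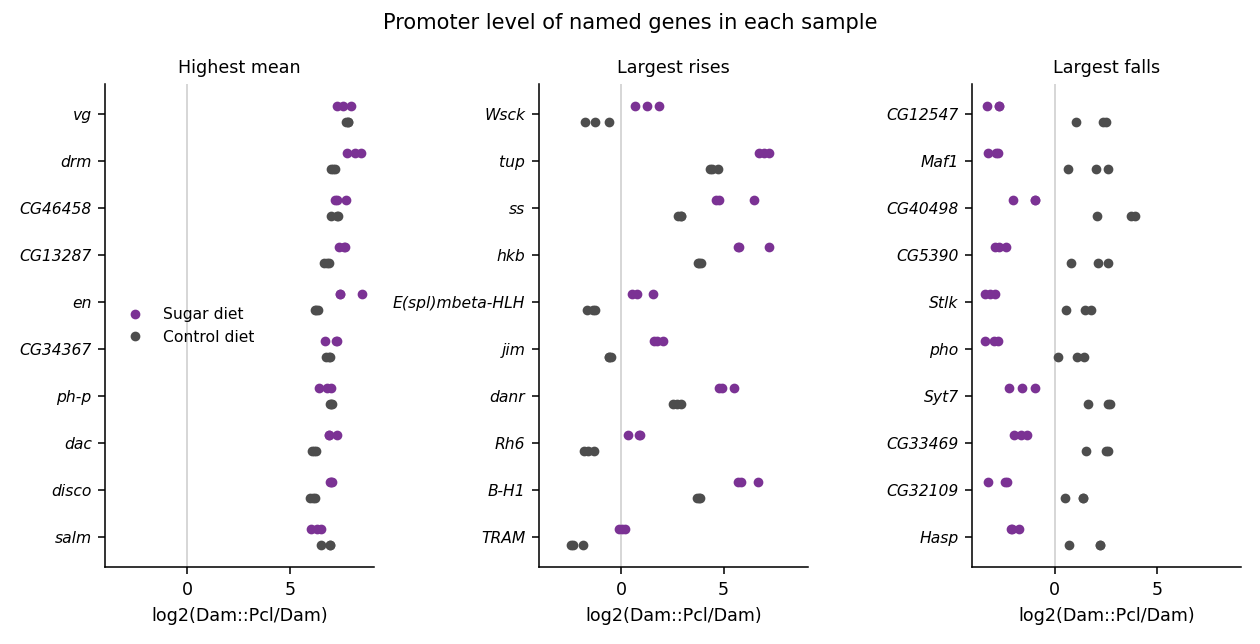
Each point is the promoter level, log2(*Dam::Pcl/Dam*), of 1 sample, with the sugar diet in purple above the control diet in gray for each gene. The panels show the 10 highest promoters, the 10 largest rises and the 10 largest falls on the sugar diet. The genes of the last 2 panels were chosen among called promoters whose samples do not overlap between the diets.

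The diets differed at a large share of promoters, in both directions. Of the 12850 tested promoters, 2485 (19.3%) were higher and 2875 (22.4%) lower on the sugar diet at a Benjamini-Hochberg adjusted p under 0.05 in limma, 5360 in all (41.7%). Over the promoters of all annotated genes 42.0% were called, 18.8% higher and 23.2% lower, and over 1 kb tiles of the genome 17.7% were called higher and 21.9% lower, so protein-coding promoters changed about as often as promoters and sequence in general. The promoters of other kinds of genes gave 634 higher and 970 lower of 3736 (42.9%). The samples of the 2 diets did not overlap at 7248 protein-coding promoters (56.4%), against 56.6% for all annotated genes, and at all of the 5360 called. The median difference over all tested promoters was -0.0055. Called rises had a median of 0.76 and called falls a median of -0.80, and 718 rises and 1041 falls were 1 or more in size. At the promoters that fell, control diet sample 3 came closest to the sugar diet mean in 2128 of 2875 cases (74.0%), and the median level of these promoters was -0.58, -0.42 and -0.50 in the 3 sugar diet samples, against 0.41, 0.33 and 0.14 in the 3 control diet samples. When each sample was left out in turn, the lowest count of calls was 3341, without control diet sample 2.

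The direction of the change followed the base composition of the promoter. With the promoters divided into 5 groups by GC content, the lowest (median 36.3%) had 55 higher and 1445 lower of 2517, with a median difference of -0.54. The next 3 groups gave 177 higher and 736 lower, 395 higher and 428 lower, and 664 higher and 198 lower. In the group with the highest GC content (median 48.9%), 1194 were higher and 68 lower of 2599, with a median difference of 0.41. Over the 12850 promoters GC content and the diet difference correlated at r = 0.606 (rho = 0.607), and the difference grew by 0.88 for each 10 points of GC content. Promoters are not independent of each other, so these are descriptions across regions, and they share 6 libraries. Bound promoters showed the same order, with 81 on the sugar diet against 218 on the control diet in the lowest group, and 316 on the sugar diet against 174 on the control diet in the highest. In the GC correction, the part of each sample's deviation that varied with GC content was fitted and taken out. Deviations that followed the level alone were left in. With this correction the calls became 3057 higher and 1822 lower, with more rises than falls in all 5 groups. Of the 5360 calls, 3086 kept their direction while 202 took the other one.

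**Figure D2:**
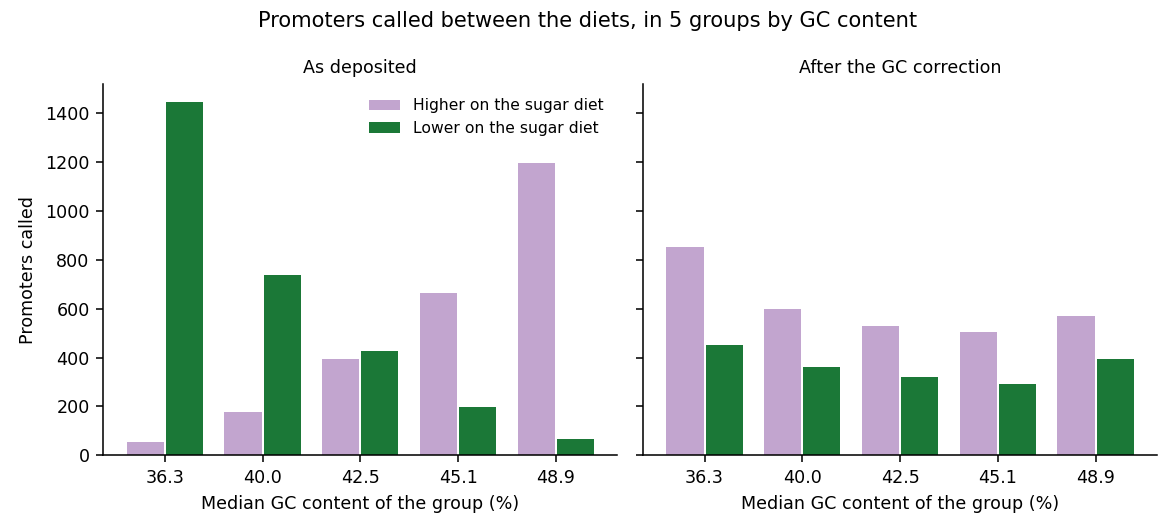
Bars give the number of promoters called higher (light purple) or lower (green) on the sugar diet in each of 5 groups by GC content, labeled by the group's median, as deposited and after the GC correction. As deposited, falls dominate at 36.3% (1445 against 55 rises) and rises at 48.9% (1194 against 68 falls), and after the correction rises outnumber falls in all 5 groups.

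The 10 largest rises included 6 genes of transcription factors with known roles in development. *tup*, a LIM homeobox gene of neuron and heart identity (2L, 18859507 to 18881261, minus strand, FBgn0003896), stood at 6.70, 6.96 and 7.22 on the sugar diet, against 4.43, 4.34 and 4.74 on the control diet. Its groups were far apart, with a rise of 2.45 ± 0.17 (SE, limma adjusted p = 0.00212), and its body rose less, so that promoter minus body was 3.83 on the sugar diet against 1.86 on the control diet. *hkb*, a terminal gap gene (3R, 4345015 to 4346646, minus strand), stood at 5.74, 5.71 and 7.20 on the sugar diet, against 3.88, 3.81 and 3.73 on the control diet, with sugar diet sample 3 well above the other two. *ss*, a regulator of antenna and photoreceptor fate, stood at 4.77, 4.62 and 6.46 on the sugar diet, against 2.92, 2.93 and 2.77 on the control diet, again with sample 3 the highest. Of the 10 rises, 8 had sugar diet sample 3 as the highest sugar diet sample. *danr*, a regulator of antenna and eye, and *B-H1*, a homeobox gene of the eye and sense organs, rose by 2.33 and 2.28 (limma adjusted p = 0.00251 and 0.00351), and *E(spl)mbeta-HLH*, a target of Notch signaling, rose by 2.40 (limma adjusted p = 0.00359).

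The other 4 rises, like that of *E(spl)mbeta-HLH*, came with mean control diet levels below 0. *jim*, a zinc finger gene, stood at 1.73, 1.62 and 2.07 on the sugar diet, against -0.60, -0.60 and -0.50 on the control diet. *Rh6*, a rhodopsin of the inner photoreceptors, stood at 0.93, 0.34 and 0.89 on the sugar diet, against -1.31, -1.61 and -1.82 on the control diet. *Wsck* and *TRAM* rose by 2.47 and 2.25 (limma adjusted p = 0.0085 and 0.00224) to means of 1.27 and 0.05 on the sugar diet, against -1.20 and -2.20 on the control diet. All 10 lay in GC-rich windows (50.7% to 57.3%), and all 10 remained called after the GC correction, with rises of 1.54 to 2.00.

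The 10 largest falls were larger than the rises and included a Polycomb group gene. That gene, *pho*, lies on chromosome 4, where 61 of the 71 tested promoters were called lower. *pho* encodes the DNA-binding Polycomb protein Pho (4, 1172469 to 1181628, minus strand, FBgn0002521), and its promoter stood at -3.40, -2.93 and -2.74 on the sugar diet, against 1.42, 1.11 and 0.18 on the control diet. The groups did not overlap, as the choice of these genes required, and the fall of 3.93 was more than 10 times its standard error of 0.37 (limma adjusted p = 0.00256). *CG5390* stood at -2.90, -2.72 and -2.35 on the sugar diet, against 2.59, 2.12 and 0.78 on the control diet, and *Syt7*, a synaptotagmin of vesicle release, stood at -2.20, -0.97 and -1.60 on the sugar diet, against 2.72, 2.62 and 1.65 on the control diet. *Maf1*, a repressor of RNA polymerase III, dropped by 4.70 (limma adjusted p = 0.00325) and *Stlk*, a gene of the Ste20 kinase family, dropped by 4.43 (limma adjusted p = 0.00214). The largest fall of all was at *CG12547*, with -3.31, -2.69 and -2.68 on the sugar diet, against 2.34, 2.53 and 1.06 on the control diet. *CG40498*, *CG33469*, *CG32109* and *Hasp* made up the rest, with differences between -4.53 (*CG40498*) and -3.66 (*Hasp*). In each of the 10, control diet sample 3 was the lowest control sample, and all 10 windows were AT-rich (25.8% to 37.3% GC). All 10 remained called after the GC correction, with differences of -3.74 to -2.46.

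Chromosome 4, a small and largely heterochromatic chromosome, moved almost as a whole. Of its 71 tested promoters 1 was higher and 61 were lower, with a median of -0.95 on the sugar diet, against 0.69 on the control diet, and 7 were bound on the sugar diet against 21 on the control diet. At the gene start the mean was -0.61, -0.16 and -0.26 in the sugar diet samples, against 1.54, 1.39 and 0.93 in the control diet samples. Its promoters had a median GC content of 32.7%, and the bodies of its genes fell too, 76 of 79 with 0 higher. After the GC correction 8 promoters of chromosome 4 were higher and 33 lower, with a median difference of -0.52. On the 5 other arms the share called higher lay between 15.8% (2L) and 23.0% (2R), and the share called lower between 17.0% (X) and 25.9% (3L).

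Promoter and gene body did not move in step. Of the 11134 gene bodies tested, 3285 were higher and 2269 lower on the sugar diet (49.9% called), where over all annotated genes 49.6% were called, 29.1% higher and 20.5% lower. After the GC correction the bodies gave 1416 higher and 2262 lower. Gene bodies are richer in GC (median 45.8%) than promoters (42.5%). Among the 10156 genes with both windows, 984 were higher in both, 809 lower in both, 230 higher at the promoter and lower in the body, and 390 lower at the promoter and higher in the body. A further 917 promoters rose and 1023 fell with no call in the body, and 1702 bodies rose and 951 fell with no call at the promoter. The diet differences of promoter and body correlated at r = 0.326 over these genes, while the levels of promoter and body correlated at r = 0.640 on the sugar diet and 0.618 on the control diet. Promoter and body of one gene come from the same library and are adjacent in the genome.

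Set against its own gene body, the median promoter stood close to it on the sugar diet and slightly above it on the control diet. The median of promoter minus body was -0.043, -0.0039 and 0.014 in the sugar diet samples, against 0.13, 0.10 and 0.068 in the control diet samples. The groups did not overlap, with means of -0.011 ± 0.029 on the sugar diet and 0.10 ± 0.031 on the control diet (SD, n = 3 each), a difference of -0.11 and an exact permutation p of 0.1 (two-sided), the smallest possible here. The difference was -0.057 for windows without neighbors and -0.054 for windows of 1000 bp on each side, each with an exact permutation p of 0.2. Promoter exceeded body at 46.8%, 49.5% and 51.1% of genes in the sugar diet samples, against 59.5%, 57.7% and 55.7% in the control diet samples. Gene by gene, limma called promoter above body at 2907 genes and below it at 2963 on the sugar diet, against 3515 above and 2241 below on the control diet. Among windows without neighbors promoter was above body at 1042 genes and below it at 645 on the sugar diet, against 1105 above and 482 below on the control diet, and windows of 1000 bp on each side gave 3018 above and 2482 below on the sugar diet, against 3250 above and 2125 below on the control diet. Over all annotated genes these shares were 28.7% above and 29.2% below on the sugar diet, and 34.6% above and 22.0% below on the control diet. The change in promoter minus body between the diets was called at 4575 genes (45.0%), up at 1879 and down at 2696, beside 45.1% of all annotated genes, 18.4% up and 26.6% down. The change with diet, the balance on the control diet and the sign of the difference in medians turned with the GC correction, which gave 3049 up and 1411 down for the change, 3784 above and 2272 below on the sugar diet and 2771 above and 3077 below on the control diet, and a difference in the sample medians of 0.15 (exact permutation p = 0.1).

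**Figure D3:**
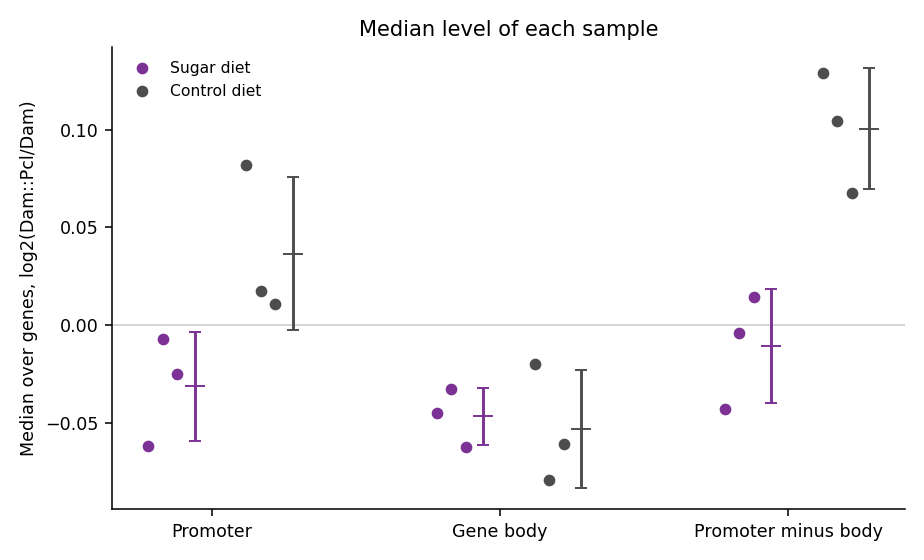
Each point is the median of 1 sample over the tested genes, in log2(*Dam::Pcl/Dam*), for promoters, gene bodies and promoter minus body, with the mean and SD of the 3 samples beside them. Sugar diet points are purple and left of the gray control diet points, and the diets separate for promoter and for promoter minus body but not for gene body.

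The difference had a shape around the gene start. Averaged over all tested promoters, the control diet profile peaked at 0.19 near 350 bp before the start and reached its lowest point, -0.042, near 450 bp after it, whereas the sugar diet profile was lowest, -0.023, near 250 bp before the start and highest, 0.14, near 450 bp after it. In the upstream side of the window the median difference between diets was -0.094, and in the downstream side 0.063. These profiles and differences are as deposited, without the GC correction. The diet difference of promoters followed GC content (r = 0.606), and the part of GC content in this shape was not tested. Promoters called higher rose by a median of 0.67 upstream and 0.89 downstream, and promoters called lower differed by -0.96 upstream and -0.60 downstream. Around the starts of developmental transcription factor genes the mean was far higher, with a maximum of 4.23 on the sugar diet, 150 bp before the start, against 3.69 on the control diet, 650 bp before it. At the start itself these genes averaged 3.95, 4.03 and 4.53 in the sugar diet samples, against 3.43, 3.31 and 3.33 in the control diet samples. Cytoplasmic ribosomal protein genes had a dip instead, with a minimum of -0.51 on the sugar diet and -0.62 on the control diet.

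**Figure D4:**
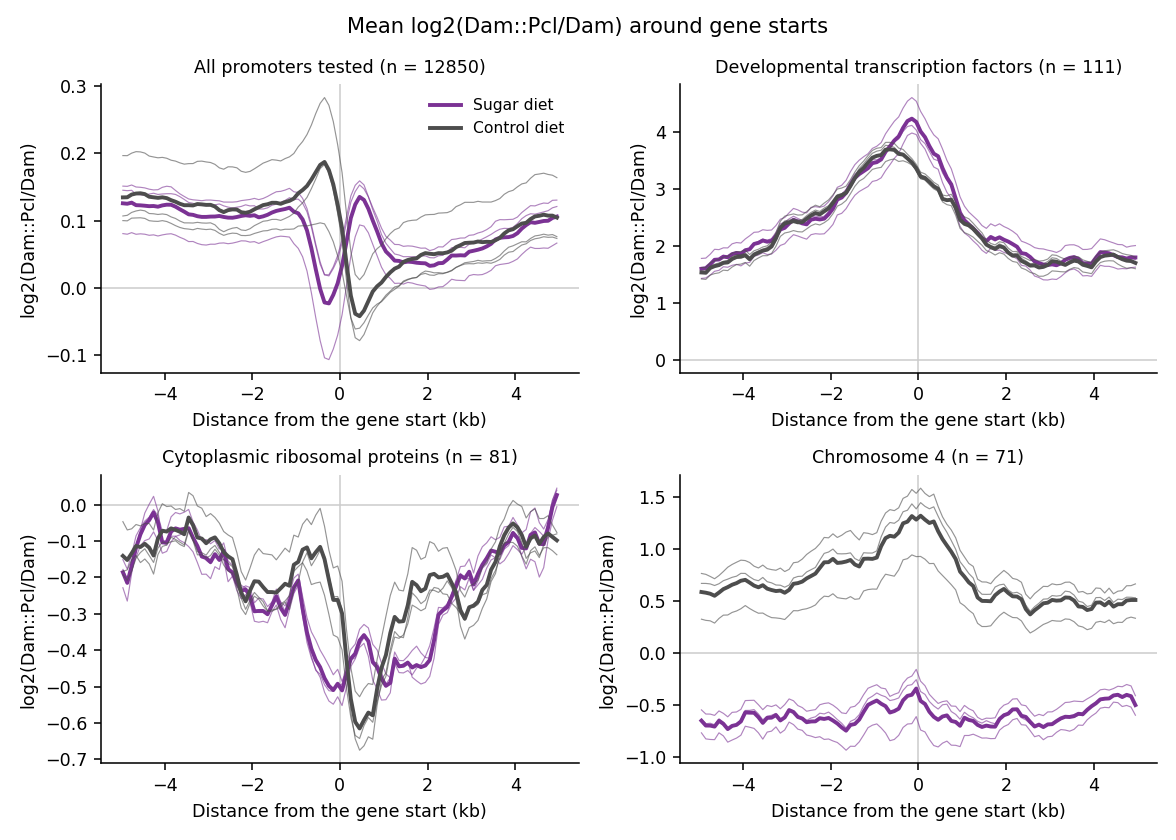
Mean log2(*Dam::Pcl/Dam*) against distance from the gene start in kb (negative values upstream), for all tested promoters, developmental transcription factors, cytoplasmic ribosomal proteins and chromosome 4. Thick lines are diet means (sugar diet purple, control diet gray) and thin lines single samples; the scales differ between panels, and as deposited the developmental genes peak at 4.23 on the sugar diet and 3.69 on the control diet, an order of the diets that depends on the scaling (52 higher and 4 lower as deposited, 12 and 14 after division by the spread).

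Strong promoter binding often came without a bound body. Of the 721 promoters bound on the sugar diet with both windows, 298 (41.3%) also had a bound body, against 272 of 662 (41.1%) on the control diet. In the other direction, 65.6% of bound bodies on the sugar diet and 71.8% on the control diet had a bound promoter. A body was called bound by the same rule, on its mean over the whole body. A long body with a bound stretch can therefore average below 1, and the part of body length in these shares was not tested. Promoters bound on both diets exceeded their bodies by a median of 1.52 on the sugar diet and 1.31 on the control diet. This set was chosen by a high promoter level alone, which favors an excess over the body. On the control diet the largest excess was at *salm*, where promoter minus body averaged 4.92 on the sugar diet and 5.53 on the control diet, followed by *vg* (5.14 on the sugar diet and 5.32 on the control diet), *l(3)L1231*, *CG13287*, the gap gene *Kr*, *ph-p*, *CG14459* and *disco*. For these 6 the excess was 4.22, 5.18, 3.38, 3.84, 3.02 and 4.79 on the sugar diet, against 5.12, 5.10, 4.85, 4.81, 4.59 and 4.47 on the control diet. At *Kr* the excess changed by -1.47 on the sugar diet (limma adjusted p = 0.0104), and at *CG14459* the change was -1.56 (limma adjusted p = 0.00248).

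At other genes the body stood above the promoter. *CG10038* stood at 0.86 at the promoter and 5.51 in the body on the sugar diet, against 0.91 at the promoter and 4.62 in the body on the control diet. *gl*, a zinc finger gene of photoreceptor development, stood at 2.36 at the promoter with promoter minus body at -2.85 on the sugar diet, against 2.15 at the promoter and -2.95 for the difference on the control diet. *Axn*, an inhibitor of Wnt signaling, stood at 0.74, 0.99 and 0.84 at the promoter on the sugar diet, against -0.96, -0.84 and -0.58 on the control diet, while its body stood at 2.14, 2.31 and 2.32 on the sugar diet, against 2.25, 2.14 and 1.88 on the control diet. Its promoter therefore rose by 1.65 (limma adjusted p = 0.00214) under a body whose samples overlapped. *CG4161*, *CG5746*, *COX7A*, *DIP-alpha* and *spdi* completed the 8 genes, with promoter minus body on the control diet between -3.48 (*CG4161*) and -2.81 (*spdi*). The annotated outermost start need not be the start in use in these cells.

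Some genes changed in opposite directions at the promoter and in the body, or in the body alone. *CG13108* stood at 1.59, 2.03 and 2.36 at the promoter on the sugar diet, against 0.31, -0.03 and 0.24 on the control diet, while its body stood at -1.76, -1.12 and -1.34 on the sugar diet, against 0.45, 0.23 and 0.01 on the control diet. The change in promoter minus body was 3.46 (limma adjusted p = 0.000621), the largest increase. *mago*, a core part of the exon junction complex, rose at the promoter to 0.75 on the sugar diet, against -0.64 on the control diet, and its change was 3.26 (limma adjusted p = 0.000545). At *thetaTry*, a trypsin gene, the promoter stood at 0.09 on the sugar diet and 0.12 on the control diet while the body fell to -1.90 on the sugar diet, against 1.57 on the control diet. *thetaTry*, *mRpL17*, *Pa1* and *jim* had changes of 3.43, 2.99, 2.87 and 2.69. *CG8272* went the other way, with -2.47, -1.71 and -1.99 at the promoter on the sugar diet, against 1.12, 1.20 and 0.47 on the control diet, and a change of -4.08 (limma adjusted p = 0.000852). *CG40498*, *Hasp*, *Maf1*, *Stlk* and *CG31200* changed by -4.0, -3.99, -3.76, -3.68 and -3.61. All 12 remained called after the GC correction.

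Most promoters of developmental transcription factors were bound by *Pcl*. Of 125 such genes in the annotation 111 could be tested, and 92 of these (82.9%) were bound on the sugar diet and 90 (81.1%) on the control diet, 89 on both. Their median level was 3.76, 3.84 and 4.52 in the sugar diet samples, against 3.44, 3.34 and 3.35 in the control diet samples. As deposited 52 rose and 4 fell, against shares of 18.8% and 23.2% over all annotated genes, and the GC correction left 42 higher and 9 lower. This direction depended on the scale of the samples, since quantile normalization gave 38 higher and 17 lower, and division by each sample's spread gave 12 higher and 14 lower. Promoters bound on both diets shared the dependence, with 183 higher and 43 lower as deposited, 131 and 138 after quantile normalization, and 43 and 111 after division by the spread. Promoter stood above body at 83 and below it at 11 of 108 genes on the sugar diet, against 82 above and 12 below on the control diet.

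Among the rises in this group were *Optix* and *so*, which act in eye formation, *Dll*, which specifies the distal parts of legs and antennae, and *C15*, a homeobox gene of the leg tip. *Optix* stood at 6.39, 6.34 and 6.74 on the sugar diet, against 4.23, 4.20 and 4.34 on the control diet. *Dll* stood at 5.23, 5.33 and 6.30 on the sugar diet, against 3.77, 3.79 and 3.72 on the control diet, and *C15* at 6.94, 7.04 and 8.04 on the sugar diet, against 5.19, 5.18 and 5.64 on the control diet. The 4 falls were *ey*, *Hand*, *scro* and *bcd*. *ey*, the fly Pax6 gene, stood at -1.01, 0.45 and 0.54 on the sugar diet, against 3.81, 3.91 and 2.79 on the control diet, and was the one gene of the group bound on the control diet alone (difference -3.51, limma adjusted p = 0.00662). Like *pho*, *ey* lies on chromosome 4, most of whose tested promoters were called lower. *Hand*, a regulator of heart development, stood at 3.18, 4.27 and 4.11 on the sugar diet, against 6.81, 6.62 and 5.88 on the control diet, and remained bound on both. *bowl*, *byn* and *ind* were bound on the sugar diet alone, though *ind* did not pass the test (difference 0.28, limma adjusted p = 0.139).

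Of the 5 transcription factor genes that the study followed up, *Ptx1*, a paired-like homeobox gene, stood at 6.54, 6.73 and 7.56 at the promoter on the sugar diet, against 5.90, 5.75 and 5.66 on the control diet. The difference of 1.17 passed the test as deposited (limma adjusted p = 0.0234) and not after the GC correction (0.67, limma adjusted p = 0.074). *GATAe*, a zinc finger gene of the gut, stood at 5.56, 5.86 and 5.74 on the sugar diet, against 5.12, 5.03 and 5.03 on the control diet, a rise of 0.66 (limma adjusted p = 0.00552). *nub*, a POU homeobox gene, stood at 3.77, 3.65 and 4.58 on the sugar diet, against 3.30, 3.18 and 3.07 on the control diet, without overlap but just short of the threshold (difference 0.82, limma adjusted p = 0.055), and past it after the GC correction (1.04, limma adjusted p = 0.0173). *scro*, an NK2 homeobox gene, stood at 2.18, 2.85 and 3.23 on the sugar diet, against 5.38, 5.31 and 4.34 on the control diet, a difference of -2.25 (limma adjusted p = 0.00953). The window of *cad* lies in 1 fragment and was not tested. It stood at 4.99, 5.16 and 5.07 on the sugar diet, against 4.59, 4.53 and 4.23 on the control diet. These genes were chosen by the study on these samples, so they are not independent evidence of a direction.

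Hox genes, which set segment identity, were bound at all 8 promoters on both diets, but 4 of the windows lie in 1 fragment. Of the 4 tested, *lab*, *pb* and *Antp* rose and *Dfd* did not pass the test. *pb* stood at 4.44, 4.34 and 6.01 on the sugar diet, against 3.33, 3.21 and 3.14 on the control diet, and *Antp* at 6.30, 6.50 and 6.36 on the sugar diet, against 5.22, 5.33 and 5.65 on the control diet. Among the untested windows, *Abd-B* stood at 6.39, 6.97 and 6.58 on the sugar diet, against 7.17, 7.24 and 6.89 on the control diet, with overlap between the diets, and *Scr* at 4.84, 4.89 and 6.87 on the sugar diet, against 4.47, 4.57 and 3.55 on the control diet. After division by each sample's spread 0 of the 4 tested were called, and the differences at *Antp* and at *GATAe* turned to -0.35 and -1.30 in units of that spread.

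**Figure D5:**
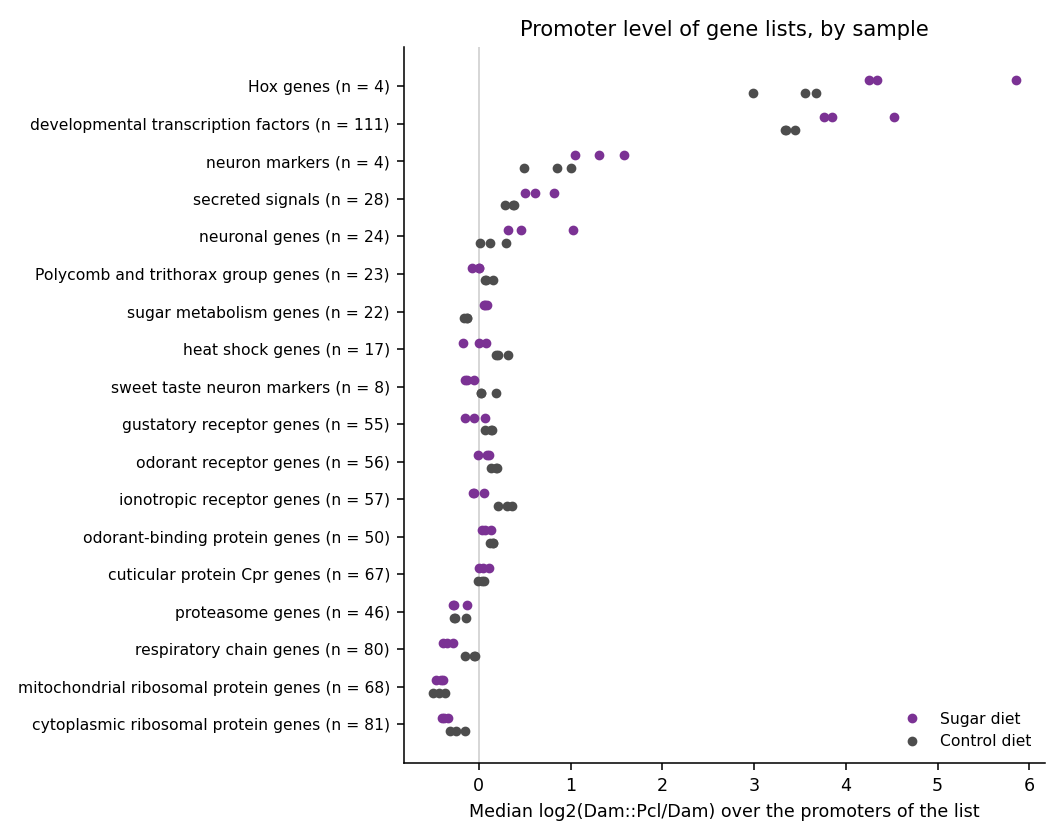
Each point is the median promoter level, log2(*Dam::Pcl/Dam*), of the tested genes of a list in 1 sample, with the sugar diet (purple) above the control diet (gray). Hox genes and developmental transcription factors lie highest in all 6 samples, the factors between 3.34 and 4.52; whether the sugar diet lies above the control diet there depends on the scaling, with 52 of these factors higher and 4 lower as deposited and 12 higher and 14 lower after division by each sample's spread.

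Genes for secreted signals were bound in part. Of 28 tested, 11 were bound on the sugar diet and 9 on the control diet, 10 rose (35.7%) and 3 fell (10.7%), beside 18.8% and 23.2% over all annotated genes. Division by each sample's spread gave 6 higher and 3 lower. *Ser*, a Notch ligand, stood at 3.63, 3.75 and 4.14 on the sugar diet, against 1.80, 1.88 and 2.36 on the control diet (difference 1.82, limma adjusted p = 0.00337). *hh*, the ligand of the Hedgehog pathway, rose by 1.5 (limma adjusted p = 0.0193), and *wg*, a Wnt ligand, stood at 4.12 on the sugar diet and 3.82 on the control diet without a call. *ths*, a ligand of the FGF receptor Heartless, was lower on the sugar diet, at -0.08, 0.62 and 0.85 on the sugar diet, against 1.97, 1.89 and 1.27 on the control diet.

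Of the Polycomb and trithorax group genes themselves, 23 were tested and 4 were bound on each diet. Between the diets 5 rose and 5 fell (21.7% each), a share near the 18.8% and 23.2% over all annotated genes. The PRC1 genes *ph-p*, *ph-d* and *Psc* and the gene *jing* were bound on both diets, and *Psc* averaged 4.27 on the sugar diet and 3.33 on the control diet (limma adjusted p = 0.0361). The promoters of 3 core genes of PRC2, *Su(z)12*, *E(z)* and *esc*, were not bound on either diet. *Su(z)12* stood at -1.99, -1.54 and -1.99 on the sugar diet, against -0.87, -0.78 and -1.07 on the control diet (difference -0.93, limma adjusted p = 0.0087), *E(z)* differed by -0.33 (limma adjusted p = 0.349) and *esc* by 0.10 (limma adjusted p = 0.588). *Pcl* itself stood at -0.86, -0.41 and -1.18 on the sugar diet, against -0.21, -0.18 and -0.77 on the control diet, with overlap (limma adjusted p = 0.225). Its body, which includes coding sequence that the fusion also carries, stood at 0.61, 0.24 and 0.42 on the sugar diet, against -0.33, -0.33 and -0.29 on the control diet. *Sfmbt*, a partner of Pho, fell to -1.56 on the sugar diet, against 0.47 on the control diet (limma adjusted p = 0.00232).

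The promoters of sugar metabolism genes had a median level of 0.12 on the sugar diet and -0.15 on the control diet. On the sugar diet 3 of 22 were bound (13.6%) and on the control diet 1 (4.55%), beside 6.79% and 6.44% of all tested promoters. Of 22 tested, 9 were higher (40.9%) and 3 lower (13.6%), beside 18.8% and 23.2% over all annotated genes, and the count was 10 and 3 after quantile normalization and after the GC correction, and 9 and 3 after division by the spread. *Mondo*, the fly homolog of the carbohydrate-sensing factor ChREBP, stood at -0.11, -0.39 and 0.90 on the sugar diet, against -1.59, -1.67 and -1.67 on the control diet (difference 1.77, limma adjusted p = 0.0124), and the gene of its partner *bigmax* rose as well. *Hex-A*, a hexokinase, averaged 1.56 on the sugar diet and 0.38 on the control diet, and *Pepck1*, of gluconeogenesis, 1.28 on the sugar diet and 0.47 on the control diet, and both were bound on the sugar diet alone. *fbp*, which encodes fructose-1,6-bisphosphatase, was bound on both diets and stood at 1.87, 2.64 and 2.76 on the sugar diet, against 4.0, 3.83 and 3.20 on the control diet, a difference that did not pass after the GC correction (limma adjusted p = 0.0846). *Pfk*, which encodes phosphofructokinase, differed by -1.34 as deposited (limma adjusted p = 0.0076) and by 0.49 after the GC correction (limma adjusted p = 0.0193).

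Of 33 neuronal genes in the annotation 24 could be tested at the promoter. Of these 7 rose (29.2%) and 1 fell (4.17%), beside 18.8% and 23.2% over all annotated genes. The gene bodies went the other way as deposited, with 3 higher and 12 lower of 33, beside 29.1% and 20.5% over all annotated genes. Promoter minus body was called up at 12 and down at 1 of 24, beside 18.4% and 26.6%. *Sh*, a potassium channel, stood at 0.73, 0.75 and 1.98 on the sugar diet, against -0.57, -0.79 and -0.94 on the control diet, *nSyb*, of synaptic vesicle fusion, at 0.79, 1.02 and 1.05 on the sugar diet, against -0.16, -0.27 and -0.24 on the control diet, and *para*, the voltage-gated sodium channel, averaged 1.61 on the sugar diet and 0.50 on the control diet and was bound on the sugar diet alone. Of 8 sweet taste receptor genes 0 were bound on either diet, beside 6.79% and 6.44% of all tested promoters. So few genes cannot be told apart from these shares. *Gr5a* stood at 0.25, 0.15 and -0.14 on the sugar diet, against 0.60, 0.76 and 0.34 on the control diet (difference -0.48, limma adjusted p = 0.0537). Of the 4 bitter receptor genes tested *Gr33a* alone was bound, on the control diet. *Gr66a*, a bitter receptor, fell to -0.64 on the sugar diet, against -0.07 on the control diet (limma adjusted p = 0.0198). Of the 8 sweet receptor genes 2 were called higher and 1 lower on the sugar diet, and 0 and 1 after the GC correction. Among the 4 bitter receptor genes 1 was called higher and 2 lower, and 1 and 1 after the GC correction. Of 5 glia markers 1 was bound on the sugar diet and 2 on the control diet, and 2 were called higher and 1 lower. These marker lists are small, beside 18.8% higher and 23.2% lower over all annotated genes. The highest glia marker, *repo*, a homeobox gene, averaged 3.29 on the sugar diet and 2.23 on the control diet. These levels are binding in cells with the driver and cannot show which cells expressed it.

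The families of chemosensory genes had mostly unbound promoters, like tested promoters in general, of which 6.79% were bound on the sugar diet and 6.44% on the control diet. The shares on the sugar and the control diet were 3.64% and 1.82% for gustatory receptors and 3.57% and 7.14% for odorant receptors. They were 7.02% and 8.77% for ionotropic receptors and 6.0% and 8.0% for odorant-binding proteins. Of gustatory receptor genes 8 rose and 11 fell of 55, of odorant receptor genes 4 and 13 of 56, of ionotropic receptor genes 6 and 21 of 57, and of odorant-binding protein genes 3 and 12 of 50. Over all annotated genes 18.8% rose and 23.2% fell, and the shares of the gustatory receptor genes (14.5% and 20.0%) and the falls of the odorant receptor genes (23.2%) lay near these. After the GC correction the 4 families gave 5 and 5, 7 and 7, 10 and 8, and 5 and 5. *Gr21a*, a subunit of the carbon dioxide receptor, stood at 1.45, 1.49 and 1.18 on the sugar diet, against -0.28, -0.71 and -0.55 on the control diet, and *Ir31a* stood at -2.52, -1.95 and -2.14 on the sugar diet, against 1.14, 1.15 and 0.53 on the control diet. *Ir7d* was the highest of the ionotropic receptors, with 2.99, 3.73 and 3.56 on the sugar diet, against 3.42, 3.47 and 2.92 on the control diet.

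The lists of ribosomal protein, respiratory chain and proteasome genes had medians below 0 on both diets. The promoters of 81 cytoplasmic ribosomal protein genes had a median of -0.41 on the sugar diet and -0.25 on the control diet, 0 were bound on either diet, and 15 rose while 22 fell, which became 23 and 7 after the GC correction. The largest fall among them was at *RpL5*, with -2.24, -1.57 and -2.05 on the sugar diet, against 1.16, 0.75 and 0.15 on the control diet. Mitochondrial ribosomal protein genes gave 13 and 13 of 68, respiratory chain genes 13 and 22 of 80, and proteasome genes 5 and 7 of 46, beside 18.8% higher and 23.2% lower over all annotated genes. The GC correction turned the respiratory chain genes to 16 higher and 10 lower. Heat shock genes gave 4 higher and 6 lower of 17. Among them *Hsp67Bc* was bound on the sugar diet alone, and *Hsp70Ba*, one of several near-identical copies, was bound on the control diet alone. The cuticular protein genes gave 12 and 9 of 67. Histone gene promoters, in repeated copies, had a median of 0.0 on both diets, so their 0 rises and 6 falls of 115 are uncertain. The GC correction gave 22 higher and 85 lower at these promoters. Calls after the correction can therefore come from windows whose deposited values lie near 0.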

How the data were processed

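Per the labels and the methods of the study, the authors aligned reads with Bowtie2 and deposited, for each sample, log2(*Dam::Pcl/Dam*) per GATC fragment of dm6; the pipeline's normalization option and the Dam-only library behind each ratio are not given in the sources used here. The deposited log2 values were used as they stand. Windows came from the BDGP6.54 annotation (Ensembl release 115), without transposable elements, and each window took the mean of its fragments weighted by length.

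Promoters, bodies, their difference and its change with diet were tested with limma 3.58.1 in R 4.3.3, without a replicate block, over the windows of all annotated genes (Benjamini-Hochberg, adjusted p under 0.05). Values per sample were compared by exact permutation of the 3 against 3 samples. Python 3.11.15, numpy 2.4.6, pandas 2.3.3, scipy 1.17.1 and matplotlib 3.10.9 did the rest. The procedure was tested on simulated data: of 200 changes of 1 (log2) planted among 16586 promoter windows it recovered 99 with 3 false calls, and of 200 changes of 0.5 it recovered 0. The simulated windows were independent of each other and few were changed. In the data many windows share signal and 42.0% were called, so these rates need not hold for the calls above.

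The members and lists were chosen with earlier results of these data known. Genes were named by rule: the 10 highest and 5 lowest promoters, the 10 largest called rises and falls, the 8 largest called differences between promoter and body in each direction on the control diet, the 6 largest called changes of that difference in each direction, the study's 5 transcription factors, the Hox genes, the PRC2 and taste receptor genes, and the extremes of each list; a gene whose window overlapped one already taken was passed over. The largest rises and falls were taken among called promoters whose samples did not overlap between the diets. Other list members were chosen after their values were seen. Alternatives were quantile normalization, centring with division by each sample's median absolute deviation, a GC correction (each sample's deviation from the mean of all samples fitted on GC content, its square, the level and their products), stricter thresholds, windows of other sizes, more fragments, windows without neighbors, a replicate block and each sample left out. The GC correction took out only the fitted part that varied with GC content and left the part fitted on level alone. Same-numbered samples were not treated as pairs.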

Additional observations from a re-analysis of the deposited data

Results flagged for a closer look

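The change of promoter minus gene body with diet was marked for a closer look because it compares the effect of diet at 2 places of the same gene. By the test of the difference itself (limma, Benjamini-Hochberg), 4575 genes differed, 1879 up and 2696 down on the sugar diet as deposited. After the GC correction there were 3049 up and 1411 down.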

How the results depend on the processing

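Depth is unknown for these ratios, so the precision rests on 3 samples a diet. The count of promoters called (5360) was 2386 at an adjusted p under 0.01, 3183 with at least 4 fragments and 1502 for windows without neighbors. Gene bodies called (5554) were 3678 with the GC correction, 2693 with the replicate block and the GC correction, 3116 at 0.01 and 1629 without neighbors. The change of promoter minus body (4575) was 2578 at 0.01, 2446 with at least 4 fragments and 1263 without neighbors. Promoter against body was called at 3080 genes with at least 4 fragments and 1687 without neighbors on the sugar diet, and at 2952 and 1587 on the control diet. These filters leave fewer windows. The median promoter level turned to 0.053 and the median of promoter minus body to 0.15 with the GC correction, and that of promoter minus body was -0.057 without neighbors and -0.054 with 1000 bp windows (exact permutation p = 0.2 each). Promoters bound on the sugar diet (873) were 2632 in units of each sample's spread, 445 with at least 4 fragments, 498 without neighbors, 1721 at a level of 0.5 and 344 at a level of 2, and those on the control diet (827) were 3204, 427, 443, 1688 and 338. Tiles of the genome called were 26597 with the replicate block, 17837 at 0.01 and 24723 with at least 4 fragments.

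Leaving out each sample gave 3341 to 4729 promoters, 3998 to 5021 bodies, 3208 to 4278 changes of promoter minus body, 4870 to 5670 genes for promoter against body on the sugar diet, 4221 to 5994 on the control diet, and 27121 to 38786 tiles. It gave 873 to 1037 promoters bound on the sugar diet and 827 to 1089 on the control diet, and medians of -0.081 to -0.045 for promoters and -0.13 to -0.095 for promoter minus body. Among named promoters, division by the spread reversed *Antp* (-0.35), *CG13287* (-2.16), *GATAe* (-1.30), *dac* (-1.35), *disco* (-1.16) and *drm* (-1.38), the replicate block with the GC correction reversed *Pcl* (0.57), and a window of 1000 bp on each side reversed *mri* (0.34). At *Pcl* the GC correction alone gave the same 0.57, short of the threshold (limma adjusted p = 0.0614). The cause of these reversals was not tested. The replicate block alone gave 3768 promoters, 4525 bodies and 3923 changes of promoter minus body, while the numbers of the samples did not pair them (correlations of -0.22, 0.18 and -0.09). Chosen after seeing the data, keeping windows of 1 fragment gave 5810 promoters and leaving out chromosome 4 gave 5298. Over 96 named results and 20 alternatives, 1642 values kept their side of the threshold, 34 newly passed it, 88 no longer passed and 8 reversed. A change of sign at a value that passed in neither setting was counted among the 1642.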
